A study of Mus musculus with 72 samples.

Results

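The activin and TGF-beta ligands and their feedback genes were followed through 72 RNA-seq libraries of mouse melanoma lines. They are 10 genes of the 50600 in the count table: Inhba and Inhbb, which encode the activin beta A and beta B subunits, Fst and Fstl3, which encode secreted activin-binding inhibitors, Tgfb1, Tgfb2 and Tgfb3, the TGF-beta ligands, Tgfbr1, the type I TGF-beta receptor, and Smad7 and Skil, which restrain the pathway. The genes were named in a list, and the list was chosen from results that included their response to GRP in these same libraries. For these members that response is therefore given as a description, without a p-value, and counts of members on it are descriptions too. RC against mock and the comparisons at rest use the same mock libraries. Their p-values for members are not independent of that choice. The lists of other pathway genes were also drawn up with earlier results known, so their p-values after GRP are no independent support.

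Gastrin-releasing peptide (GRP) is the ligand of GRPR, a receptor that couples to G proteins, and RC-3095 (RC) blocks that receptor. Lines 1057 and 1064 came from female mice of the genotype Tyr::NRASQ61K/°; Cdkn2a-/-; Tyr::CreA/°; Cdh1dF/dF and express their own Grpr. Line 1181, of a male Tyr::NRASQ61K/°; Cdkn2a-/-; °/°; Cdh1dF/dF mouse, and line 1014, of a female Tyr::NRASQ61K/° mouse, were each used with CMV::Grpr/tGFP (1181-Grpr, 1014-Grpr) and with CMV::tGFP alone (1181-Ctrl, 1014-Ctrl). The 1181 genotype is spelled as labelled, yet it holds no Cre and the study treats 1181 as E-cadherin positive. All 6 lines carry the NRAS transgene under the tyrosinase promoter, Grpr in the engineered pairs is driven by the viral CMV promoter, and each name stands for a single line, so genotype and line cannot be told apart. Cells kept for 18 h in 0.5% FCS received mock treatment (0.1% DMSO), 10 nM GRP, 1 µM RC or both (GRP+RC) for 4 h, with 3 libraries of each. The labels do not say that the 3 came from separate cultures, so p-values measure the spread between libraries, which may be technical.

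Between 19512882 and 46862053 reads were counted per library. In CPM, the counts scaled to a common library size with TMM factors, Grpr lay between 8.46 and 1273 in the libraries of the Grpr lines and at most at 0.0914 CPM in those of the control lines, after leaving out 2 libraries. Cdh1, the E-cadherin gene, stood at 10.8 to 23.7 CPM in the mock libraries of the 1181 lines and at 0.053 CPM at most in those of 1057 and 1064. The library labelled 1014-Ctrl mock replicate 2 held 48.1 CPM of Grpr and 64.3 CPM of the Y-linked Ddx3y, and the library labelled 1181-Grpr GRP+RC replicate 2 held 0 of both. Each went against its label on both genes, so all fits use the other 70 libraries, and values with both kept are given where they bear on a result. Line 1181-Grpr, labelled male, held both Ddx3y (36.9 to 63.0 CPM) and Xist (192 to 251 CPM) in its 11 other libraries, whereas 1181-Ctrl held Xist at 0.639 CPM at most. The melanocyte genes Mitf, Sox10, Pax3, Tyr and Dct were detected in every library, and Tyrp1 fell to 0.846 CPM in its lowest library. The 9 melanocyte markers summed to between 5909 and 38340 CPM over the lines. Fibroblast markers summed to 7.23 CPM at most, with Pdgfra at 0.444 to 7.23 CPM and Lum at 0 in 67 libraries. Immune and keratinocyte markers summed to 0.308 and 1.48 CPM at most, and the endothelial markers reached 9.29 CPM in 1057.

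Activins and TGF-betas are secreted as dimers that assemble type I and type II receptor kinases, which phosphorylate SMAD2 and SMAD3. These enter the nucleus with SMAD4 and switch on target genes, among them Smad7, which blocks the type I receptor, and Skil, whose product SnoN represses SMAD-bound genes. Follistatin and follistatin-like 3 bind activin outside the cell. Melanocytes are commonly held in check by TGF-beta, and melanoma cells often secrete it.

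The regions before the start sites of the members whose values carry the results are shown first, so that they can be read beside the values. Sequences were found for 6 of the 10 members in the RefSeq promoter table (build GRCm38.p6). The 250 bases before the annotated start are printed 5′ to 3′ on the gene's strand in lower case, and the window of Tgfbr1 is that of the first of its annotated starts. Capitals mark TATAAA, the letters of a TATA box. They also mark CAGAC, the core of a SMAD-binding element.
Inhba, chr13:16011601-16011850, plus strand: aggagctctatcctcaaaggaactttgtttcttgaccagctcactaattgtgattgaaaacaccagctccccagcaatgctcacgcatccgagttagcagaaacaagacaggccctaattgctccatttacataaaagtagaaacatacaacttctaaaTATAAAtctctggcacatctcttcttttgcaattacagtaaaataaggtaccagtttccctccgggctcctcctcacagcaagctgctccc
Tgfb1, chr7:25686752-25687001, plus strand: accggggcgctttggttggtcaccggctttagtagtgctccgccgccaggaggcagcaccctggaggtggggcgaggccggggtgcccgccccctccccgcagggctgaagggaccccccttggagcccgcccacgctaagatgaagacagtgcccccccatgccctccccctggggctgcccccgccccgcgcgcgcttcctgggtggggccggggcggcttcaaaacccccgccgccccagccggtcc
Tgfb2, chr1:186705990-186706239, minus strand: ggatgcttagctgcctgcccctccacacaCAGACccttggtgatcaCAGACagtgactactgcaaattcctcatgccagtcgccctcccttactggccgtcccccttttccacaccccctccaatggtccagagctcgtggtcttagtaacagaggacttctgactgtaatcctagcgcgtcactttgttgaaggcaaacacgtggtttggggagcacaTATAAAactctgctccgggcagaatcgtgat
Tgfbr1, chr4:47352972-47353221, plus strand: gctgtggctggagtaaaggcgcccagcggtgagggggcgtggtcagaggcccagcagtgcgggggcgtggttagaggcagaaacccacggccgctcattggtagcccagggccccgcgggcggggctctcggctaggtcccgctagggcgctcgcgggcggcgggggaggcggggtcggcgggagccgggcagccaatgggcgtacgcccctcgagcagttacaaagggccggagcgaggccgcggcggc

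Of 32851 windows of 250 bases in the table, CAGAC or its reverse complement is present in 42.2% and TATAAA on either strand in 12.4%. TATAAA stands 91 to 86 bases before the start of Inhba and 31 to 26 bases before the start of Tgfb2, and CAGAC occurs at 2 places in the Tgfb2 window. The cyclic AMP response element TGACGTCA, found in 1.55% of windows, and the AP-1 element TGANTCA, found in 6.75%, were searched on both strands too and are in none of the 4 windows. G and C make up 43.2% of the Inhba window, against 75.2% for Tgfb1, 74.8% for Tgfbr1, 53.6% for Tgfb2 and a median of 52.4% over all windows. These matches are descriptions of letters in 1 window per gene and say nothing of what binds there.

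Inhba (ENSMUSG00000041324, chromosome 13, 16011851 to 16031621 on the plus strand of GRCm38), the gene of the activin beta A subunit, was higher in every GRP library than in every mock library in each of the 4 lines that express Grpr. In 1057 the 3 mock libraries held 0 reads of Inhba, and the 3 GRP libraries held 1.61, 1.62 and 1.63 CPM. With 153 reads after GRP against 0 in mock, Inhba was 52.7-fold higher after GRP, taking 3 reads over the mock group as the floor. The lower limit of the 95% counting interval for 153 against 0 reads was 42.35. In 1014-Grpr the mock libraries stood at 0.0682, 0 and 0.0882 CPM and the GRP libraries at 7.31, 17.1 and 15.97 CPM. The summed counts were 4 and 1405, a ratio of 299.9 (95% counting interval 117 to 1102), and GRP replicate 1 was the lowest of the GRP libraries. Grpr itself stood at 127, 108 and 141 CPM in those mock libraries and at 398, 577 and 632 CPM in those GRP libraries, so the transgene moved with Inhba there, and its part in the result was not tested. In 1057 Grpr was lower after GRP, at 205, 196 and 209 CPM against 273, 276 and 273 CPM.

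In 1064 Inhba stood at 0.207, 0.106 and 0.103 CPM in mock libraries and at 0.942, 0.358 and 0.791 CPM after GRP. The ratio of the summed counts, 49 over 10, was 5.19 (95% counting interval 2.6 to 11.5). In 1181-Grpr mock libraries held 0, 0 and 0.0699 CPM and GRP libraries 1.18, 0.137 and 0.197 CPM. GRP replicates 2 and 3 of this line held 4 and 6 reads, within the 1 to 7 reads of the 1181-Ctrl GRP libraries. The line also held Xist, as given above, though labelled male. In 1181-Grpr 42 of the 52 reads after GRP lay in GRP replicate 1, which also had the most Grpr of the line (80.7 CPM). The ratio was 23.9 (6.29 to 203) with that library and 7.34 (1.56 to 68.9) without it. These intervals cover counting error only, and reads carry no molecular identifiers.

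The control lines did not show this separation. In 1014-Ctrl Inhba lay at 0.19 and 0.111 CPM in the 2 mock libraries used and at 0, 0.11 and 0.0334 CPM after GRP, and the library labelled mock replicate 2 held 0.248 CPM. In 1181-Ctrl mock libraries held 0.0383, 0.0914 and 0.0457 CPM and GRP libraries 0.179, 0.0315 and 0.233 CPM. The groups overlapped in 1181-Ctrl, where the ratio was 2.37 (0.807 to 8.41), and in 1014-Ctrl it was 0.314 (0.0692 to 1.17), so both intervals take in 1.

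**Figure D1:**
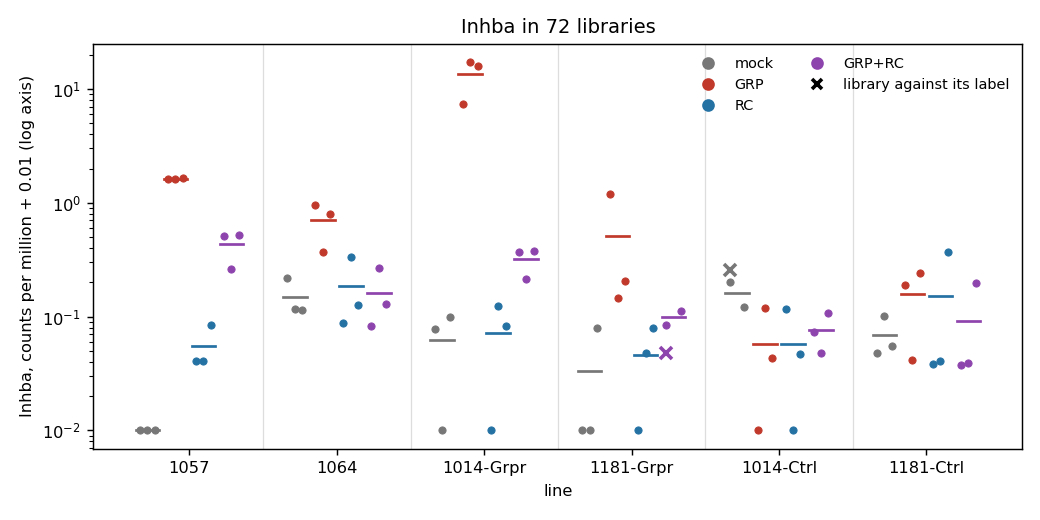
Inhba in each of 72 libraries, in CPM plus 0.01 on a log axis, by line and treatment, with bars at the group means and crosses for the 2 libraries that go against their labels. The GRP libraries of 1014-Grpr reach 7.31 to 17.1 CPM and those of 1057 lie at 1.61 to 1.63 CPM, while no library of the control lines exceeds 0.363 CPM.

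With the antagonist present, Inhba after GRP was lower than with GRP alone and still above RC alone in 1057 and 1014-Grpr. In 1057 the RC libraries held 0.0304, 0.0306 and 0.0743 CPM and the GRP+RC libraries 0.496, 0.253 and 0.514 CPM, so the groups did not overlap. The summed counts were 40 and 4, a ratio of 9.74 (95% counting interval 3.52 to 37.5). In the fit of all treatments of 1057 the log2 fold change was 3.18 ± 0.53 (SE, n = 3 each), given as a description, since Inhba entered that fit through its GRP libraries and the spread was estimated with them. Inhba was there the 1 member called of 8 tested by the edgeR quasi-likelihood test, where a call takes an adjusted p below 0.05 together with a change beyond 1 on the log2 scale in either direction. The same rule called 130 of 14195 genes, 0.916%. In a fit of the 6 RC and GRP+RC libraries alone, chosen after seeing the data, Inhba did not pass the filter on low counts and had no test, and 0 of 6 members and 0.814% of genes were called. The call was not made by DESeq2, which gave Inhba no adjusted p, nor by one fit of all lines (3.15).

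In 1014-Grpr the RC libraries held 0, 0.115 and 0.0721 CPM of Inhba and the GRP+RC libraries 0.363, 0.205 and 0.367 CPM, again without overlap. The ratio of summed counts, 22 over 5, was 4.61 (95% counting interval 1.7 to 15.6). The fitted log2 fold change of 2.14 (2.17 with the replicate block) did not pass, and Inhba entered this fit through its GRP libraries too. Against GRP alone, GRP+RC was lower by a log2 difference of -1.96 ± 0.25 in 1057 and -5.42 ± 0.43 in 1014-Grpr, given as a description since the GRP libraries entered the choice of the gene. In 1064 the groups overlapped, at 0.0727 to 0.259 CPM with GRP+RC and 0.0781 to 0.327 CPM with RC. In 1181-Grpr the 2 GRP+RC libraries used held 0.0737 and 0.103 CPM, or 2 and 3 reads, and the RC libraries 0 to 0.0693 CPM, a difference not detectable at this depth.

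The other activin subunit and the activin-binding inhibitors were scarce. Inhbb (ENSMUSG00000037035, chromosome 1) was at 0 reads in 32 of 70 libraries and reached 0.594 CPM at most, in a GRP library of 1064. Fst (ENSMUSG00000021765, chromosome 13) was at 0 in 22 libraries and reached 1.31 CPM, also in a GRP library of 1064, whose other GRP libraries held 0.514 and 0.307 CPM against 0.578, 0.053 and 0.516 CPM in mock. Neither passed the filter on low counts in any other line. Where both were tested, in 1064, their log2 fold changes after GRP were 0.27 ± 1.1 for Inhbb and 0.86 ± 0.70 for Fst.

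Fstl3 (ENSMUSG00000020325, chromosome 10) had a lower mean after GRP in 1014-Grpr. Its 3 mock libraries there held 1.06, 1.49 and 1.1 CPM and its GRP libraries 0.636, 1.1 and 0.452 CPM, so that 1 GRP library stood within the mock range. The log2 fold change was -0.76 ± 0.38, and without GRP replicate 2 Fstl3 was called there beside Inhba. In 1057, 1064 and 1181-Grpr the differences were -0.29 ± 0.44, 0.41 ± 0.45 and -0.23 ± 0.37. Of its 2445 exonic bases, 1157 are shared with Prss57 on the other strand, so reads of that gene may enter its count if strand was not used in counting.

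Tgfb1 (ENSMUSG00000002603, chromosome 7), a TGF-beta ligand, was higher after GRP in 1014-Grpr. Mock libraries held 83.0, 80.5 and 83.1 CPM and GRP libraries 133, 142 and 138 CPM, with no overlap and a log2 fold change of 0.75 ± 0.05. In 1014-Ctrl the 2 mock libraries used held 88.3 and 87.3 CPM and the GRP libraries 90.4, 93.4 and 87.8 CPM, a log2 fold change of 0.04 ± 0.06. The difference of the GRP effect, 1014-Grpr minus 1014-Ctrl, was 0.72 ± 0.07 on the log2 scale, again as a description. With RC added, Tgfb1 in 1014-Grpr stood at 92.0, 96.5 and 101 CPM, between RC alone (82.9, 85.2 and 89.4 CPM) and GRP alone. The log2 fold change of GRP+RC against RC was 0.17, and it passed only with the replicate block (0.17 ± 0.04, adjusted p = 0.014).

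In 1064 Tgfb1 went from 64.6, 50.5 and 50.7 CPM in mock to 112, 79.4 and 61.3 CPM after GRP. The groups overlapped, with a log2 fold change of 0.61 ± 0.26, yet within each replicate number the GRP library was the higher. Same-numbered libraries deviated together in 1064, 1014-Grpr, 1181-Grpr and both control lines and did not in 1057, and with the replicate block the log2 fold change in 1064 was 0.57 ± 0.09. In 1057 Tgfb1 was not higher after GRP, at 24.1, 24.9 and 27.7 CPM against 26.8, 28.7 and 27.4 CPM in mock. It was higher after RC instead, at 32.7, 34.5 and 33.1 CPM, above every mock library (log2 fold change 0.27 ± 0.06, adjusted p = 0.0015 by edgeR, and 0.86 in one fit of all lines). This comparison shares its mock libraries with the GRP contrast, so its p-value is no independent support. In 1181-Grpr and 1181-Ctrl the log2 fold changes after GRP were -0.06 ± 0.10 and -0.12 ± 0.23.

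The differences of the 2 other ligands were smaller or less certain. Tgfb2 (ENSMUSG00000039239, chromosome 1) stood at 1.74, 2.33 and 3.13 CPM in 1064 mock libraries and at 3.34, 5.27 and 3.32 CPM after GRP, each GRP library above each mock library (log2 fold change 0.73 ± 0.42, and 0.71 ± 0.24 with the replicate block). Its differences in 1057, 1014-Grpr and 1181-Grpr were 0.09 ± 0.09, 0.46 ± 0.35 and 0.19 ± 0.21, and in 1014-Ctrl the difference was 0.51 ± 0.45. Tgfb3 (ENSMUSG00000021253, chromosome 12) was lower after GRP in 1014-Grpr, at 13.4, 11.3 and 13.2 CPM against 15.3, 14.6 and 15.5 CPM in mock (log2 fold change -0.25 ± 0.09). In 1014-Ctrl, which lacks Grpr, it went the same way, at 14.3 to 15.7 CPM against 15.9 to 16.8 CPM (-0.12 ± 0.09). The difference of the GRP effect, 1014-Grpr minus 1014-Ctrl, was -0.12 ± 0.13. In 1057 Tgfb3 stayed between 33.3 and 35.4 CPM in mock and GRP libraries.

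Tgfbr1 (ENSMUSG00000007613, chromosome 4), the receptor kinase that TGF-betas share, was lower after GRP in the 2 lines with their own Grpr. In 1057 mock libraries held 124, 127 and 128 CPM and GRP libraries 95.5, 95 and 97.6 CPM, a log2 fold change of -0.37 ± 0.03 with no overlap. In 1064 mock libraries held 117, 110 and 128 CPM and GRP libraries 84.8, 82.1 and 111 CPM, a log2 fold change of -0.35 ± 0.13, and -0.36 ± 0.05 with the replicate block. In 1014-Grpr, 1181-Grpr, 1014-Ctrl and 1181-Ctrl the log2 fold changes were -0.04 ± 0.07, -0.02 ± 0.07, -0.06 ± 0.09 and -0.03 ± 0.15.

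RC did not return Tgfbr1 to its mock level in 1057. RC alone gave 111, 112 and 112 CPM, below every mock library (log2 fold change -0.19 ± 0.03, adjusted p = 0.00012 by edgeR), and GRP+RC gave 98.8, 99.2 and 97.7 CPM, below every RC library (-0.17 ± 0.03, adjusted p = 0.00027). In one fit of all lines the adjusted p-values were 0.82 and 0.95. RC against mock shares its mock libraries with the GRP contrast, so its p-value is no independent support. GRP+RC differed from GRP by 0.01 ± 0.03.

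Smad7 (ENSMUSG00000025880, chromosome 18), the inhibitory SMAD, was higher after GRP in 1057, at 20.5, 22.0 and 20.1 CPM against 15.2, 14.8 and 14.6 CPM in mock (log2 fold change 0.52 ± 0.06). With RC added the libraries held 16.6, 17.2 and 15.4 CPM, against 14.0, 14.2 and 15.4 CPM with RC alone, where 1 library of each group stood at about the same level. That difference was 0.19 ± 0.06 (adjusted p = 0.03 by edgeR, and 0.076 by DESeq2). In 1014-Grpr Smad7 went from 14.5, 14.2 and 11.8 CPM to 16.8, 19.4 and 15.2 CPM, each GRP library above each mock library (0.35 ± 0.14, and 0.34 ± 0.09 with the replicate block). In 1064 and 1181-Grpr the differences were 0.03 ± 0.33 and -0.01 ± 0.08, and in 1014-Ctrl 0.01 ± 0.13. The difference of the GRP effect on Smad7, 1014-Grpr minus 1014-Ctrl, was 0.34 ± 0.20.

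Skil (ENSMUSG00000027660, chromosome 3) was higher after GRP in 3 of the 4 lines that express Grpr, with no overlap of the groups. In 1064 mock libraries held 54.0, 50.2 and 62.3 CPM and GRP libraries 85.6, 69.1 and 79.6 CPM (log2 fold change 0.50 ± 0.11). In 1057 they held 31.4, 32.1 and 33.2 CPM and 38.3, 37.4 and 40.4 CPM (0.29 ± 0.05), and in 1014-Grpr 37.4, 34.7 and 30.4 CPM and 40.9, 37.9 and 43.0 CPM (0.26 ± 0.08). In 1181-Grpr Skil stood at 36.8 to 44.9 CPM after GRP and at 37.1 to 44.3 CPM in mock. Its log2 fold change in 1014-Ctrl was 0.12 ± 0.09, and the difference of the GRP effect, 1014-Grpr minus 1014-Ctrl, was 0.15 ± 0.13. With RC present the GRP effect on Skil was not detected, as GRP+RC against RC gave 0.04, 0.02, 0.00 and -0.01 in 1057, 1064, 1014-Grpr and 1181-Grpr.

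**Figure D2:**
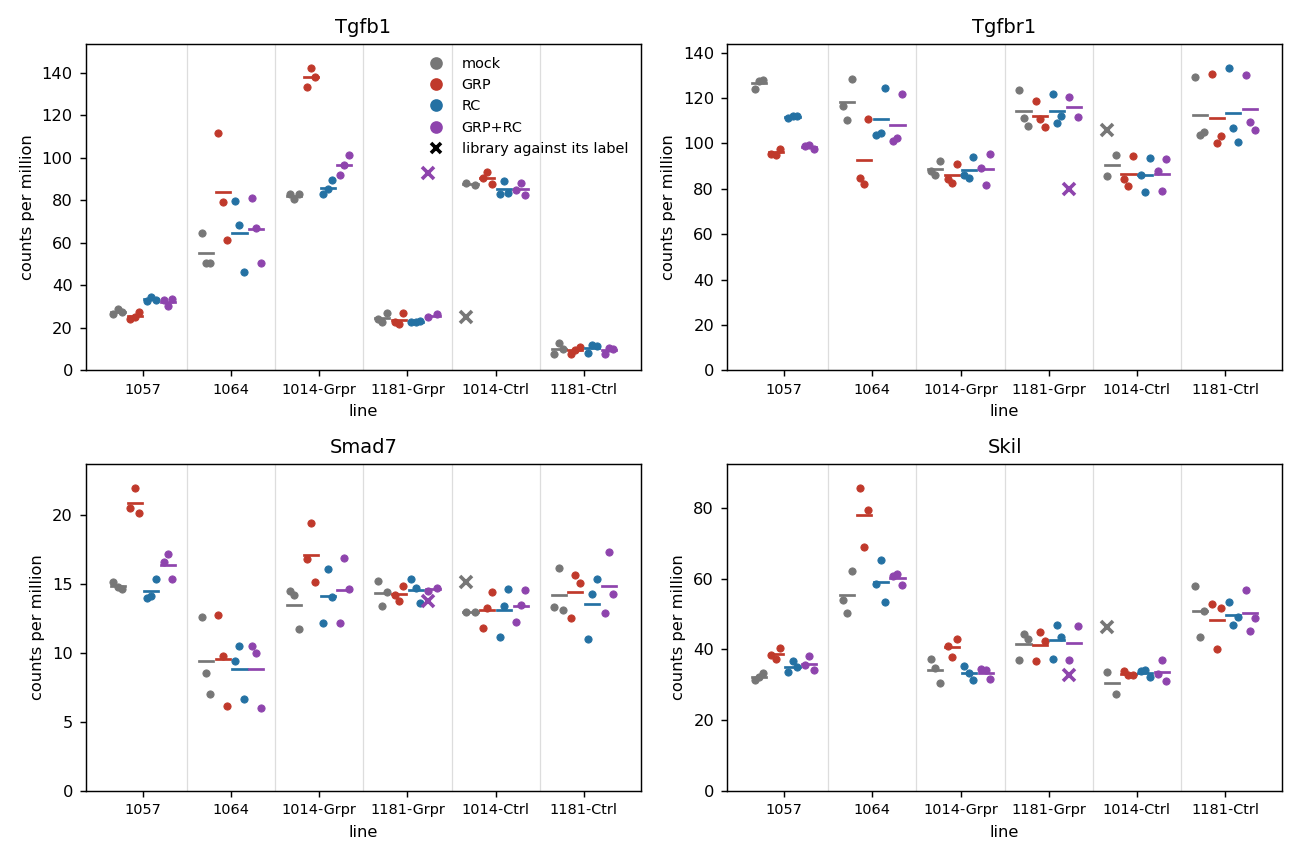
Tgfb1, Tgfbr1, Smad7 and Skil in each library, in CPM from 0, by line and treatment, with bars at the group means and crosses for the 2 libraries against their labels. Tgfb1 lies at 133 to 142 CPM after GRP in 1014-Grpr and at 87.8 to 93.4 CPM in 1014-Ctrl, Tgfbr1 lies at 95 to 97.6 CPM after GRP in 1057, and Skil reaches 69.1 to 85.6 CPM after GRP in 1064.

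Counted over the list, a member was called after GRP in 2 of the 4 lines that express Grpr. In 1057 it was Inhba, 1 of 8 members tested, where the rule called 917 of 14195 genes (6.46%; 4.96% higher and 1.5% lower), and at the adjusted p alone 4 members passed (Inhba, Smad7 and Skil higher, Tgfbr1 lower) where 52.6% of genes did. In 1014-Grpr it was Inhba too, 1 of 8, against 4.01% of genes (3.16% higher, 0.852% lower), and at the adjusted p alone 4 members passed (Inhba, Tgfb1 and Skil higher, Tgfb3 lower) where 29% did. With the replicate block 6 of the 8 passed in 1014-Grpr, with Smad7 higher and Fstl3 lower besides, where 53.6% of genes did. In 1064 none of 9 was called, against 2.32% of genes, of which 1.52% higher and 0.797% lower. At the adjusted p alone only Skil passed there, where 6.38% did. With the replicate block 4 members passed in 1064 at the adjusted p alone (Tgfb1, Tgfb2 and Skil higher, Tgfbr1 lower), where 43.5% of genes did. The shares of members were thus set by a list chosen on this contrast and are read no further.

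In 1181-Grpr none of 7 members and 0% of genes were called by edgeR, with 110 of 14770 genes at an unadjusted p under 0.05, 0 genes called by DESeq2 and 16 with the replicate block. In 1014-Ctrl and 1181-Ctrl, which lack Grpr, none of 7 and 6 members and 0% of genes were called, with 200 and 37 genes at an unadjusted p under 0.05 and 0 by DESeq2. For the members tested in 1057, 1064, 1014-Grpr and 1181-Grpr, the median log2 fold changes were 0.07, 0.41, 0.30 and -0.01, against -0.01, -0.02, -0.02 and 0.00 over all genes tested. Keeping both libraries that go against their labels left the count at 0 members in 1181-Grpr and 1014-Ctrl.

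**Figure D3:**
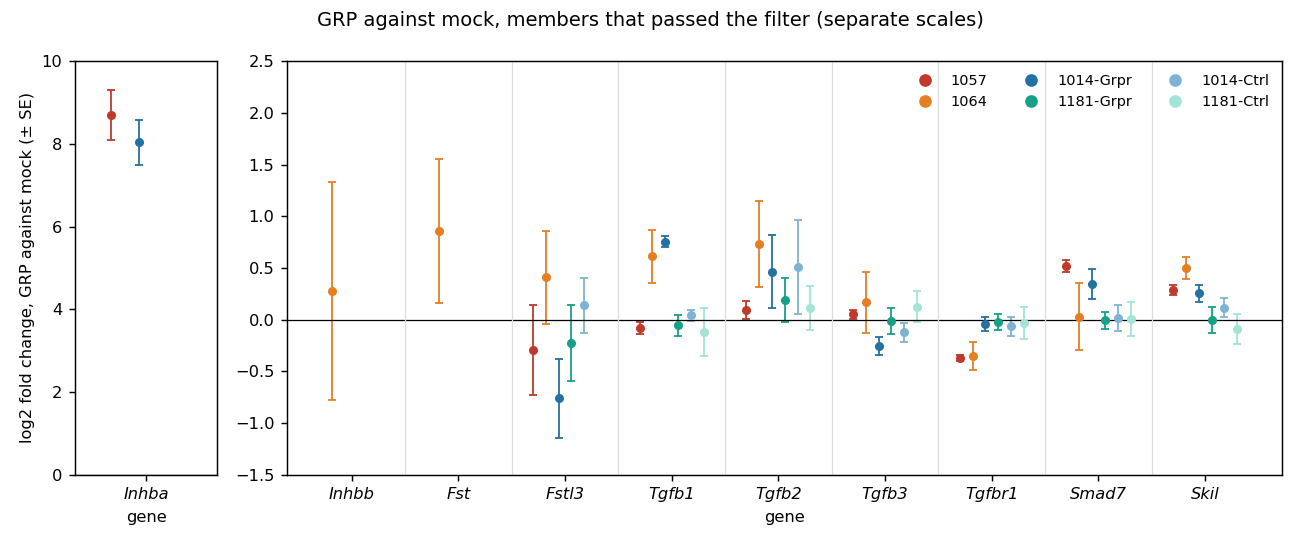
The log2 fold change of GRP against mock (± SE) for each member that passed the filter on low counts, in 6 lines, with Inhba on its own scale at the left. Inhba lies near 8 in 1057 and 1014-Grpr, where the fitted value depends on the prior count because the mock libraries hold 0 to 2 reads, and the other members lie between -0.76 and 0.86.

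For RC alone against mock, no member was called by the full rule. In 1057 0 of 8 members were called where 0.888% of genes were, and at the adjusted p alone 2 passed (Tgfb1 higher, Tgfbr1 lower) where 24.3% of genes did. In 1064, 1014-Grpr and 1181-Grpr 0% of genes were called by edgeR and by DESeq2, with 129, 161 and 72 genes at an unadjusted p under 0.05. For GRP+RC against RC at the adjusted p alone, 3 members passed in 1057 (Inhba and Smad7 higher, Tgfbr1 lower) where 20.7% of genes did, and 2 (Smad7 and Tgfbr1) in the fit of the 6 libraries alone, where 20.3% did. In the other 3 lines that comparison called 0% of genes by edgeR, with 24, 952 and 88 genes at an unadjusted p under 0.05 in 1064, 1014-Grpr and 1181-Grpr, while DESeq2 called 0, 12 and 0 and the replicate block 0, 32 and 0.

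RNA of bulk cultures was measured, in which fewer cells of a kind and less RNA per cell cannot be told apart. The resting level of the members, in TPM (which divides by transcript length and so allows genes to be compared), ranked the receptor and 1 ligand at the top. Tgfbr1 had the highest group mean of the 10 in 4 lines, at 58.3 TPM in 1057, 55.7 in 1064, 65.3 in 1181-Grpr and 67.1 in 1181-Ctrl. In 1014-Grpr and 1014-Ctrl Tgfb1 stood above it, at 59.4 and 64.1 TPM against 49.5 and 50.9 for Tgfbr1. Skil lay between 10.0 and 20.4 TPM, Tgfb3 between 15.1 and 30.4 TPM and Smad7 between 6.48 and 12.2 TPM over the 6 lines. The means of Inhba, Inhbb and Fst were 0.503 TPM at most.

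Tgfb1 differed most between lines among the abundant members. In CPM, its mock levels ran from 1014-Ctrl (87.8 ± 0.7, SD, n = 2) through 1014-Grpr (82.2 ± 1.5, n = 3), 1064 (55.3 ± 8.1) and 1057 (27.6 ± 1.0) to 1181-Grpr (24.7 ± 2.2) and 1181-Ctrl (10.2 ± 2.7). Of these neighbours only 1057 and 1181-Grpr overlapped. Tgfbr1 ran from 126 CPM in 1057 to 88.8 CPM in 1014-Grpr, and 1057, 1064, 1181-Grpr and 1181-Ctrl overlapped each with the next. Smad7 ran from 14.9 ± 0.3 in 1057 to 13.01 in 1014-Ctrl with overlap between all neighbours, and 1064 stood below them at 9.41 ± 2.9 CPM. Skil overlapped between all neighbours from 1064 (55.5 ± 6.2) to 1014-Ctrl (30.5 ± 4.5).

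**Figure D4:**
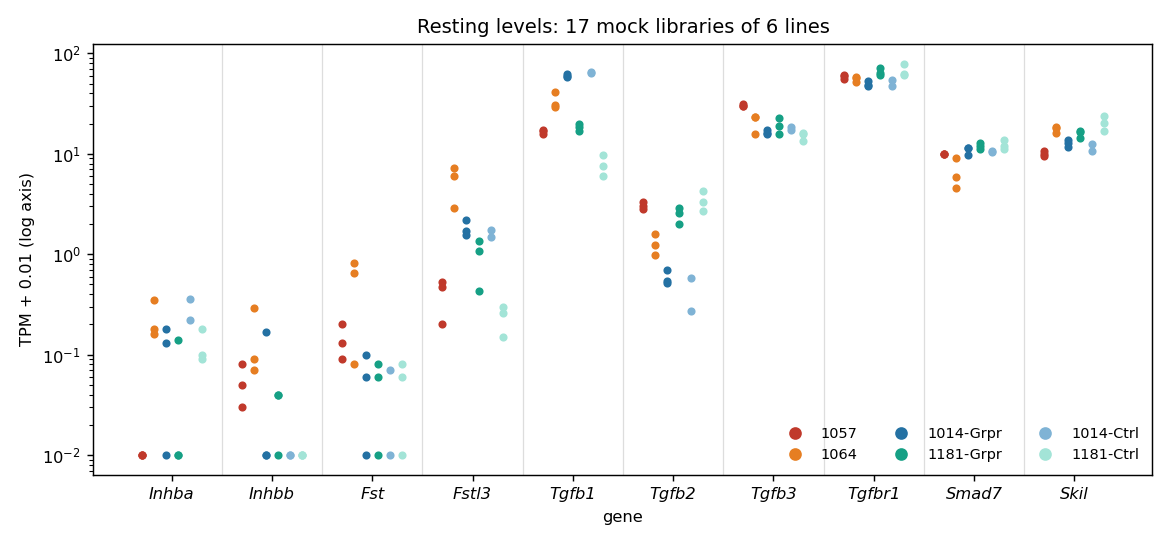
Level of the 10 members in the 17 mock libraries used, in TPM plus 0.01 on a log axis, with 1 point a library and colours for the 6 lines. Tgfbr1, Tgfb1, Tgfb3, Skil and Smad7 lie above 4 TPM in every library, and Inhba, Inhbb and Fst lie under 1 TPM.

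At rest, 1057 and 1064, the lines of 1 genotype with their own Grpr, differed in 5 of 10 members, where 28.4% of genes were called, and in 8 at the adjusted p alone, where 61.3% were. Fstl3 was lower in 1057, at 0.429, 0.372 and 0.153 CPM against 5.45, 2.28 and 5.06 CPM (log2 fold change -3.74 ± 0.48, adjusted p = 1.8e-06 by edgeR). Tgfb2 was higher in 1057, at 5.61, 5.73 and 6.17 CPM against 1.74, 2.33 and 3.13 CPM (1.27 ± 0.30, adjusted p = 0.0013). Inhba, 1 of the 5 called and of the 8, had 10 reads in 1064 and 0 in 1057. That is 4.51-fold higher in 1064 when 3 reads are taken for 1057 as the floor. Its mock libraries held 5 reads at most, and it entered this fit through its GRP libraries. Its call at rest is therefore a description. Tgfb1 (-1.002 ± 0.20, adjusted p = 0.00025) and Fst (-1.93 ± 0.74) were the least stable calls. The 1057 mock libraries held 2 to 5 reads of Fst, which did not pass the filter on low counts in 1057 alone. The call of Fst is therefore a description too. Tgfb1 fell under the fold limit without the filter, with the replicate block and without any of 1057 mock replicate 1, 1057 mock replicate 3 or 1064 mock replicate 1. Fst lost its call without any of 1057 mock replicate 2, 1057 mock replicate 3, 1064 mock replicate 1 or 1064 mock replicate 3, where its adjusted p was 0.075 to 0.12.

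Skil was lower in 1057 than in 1064 (-0.79 ± 0.09, adjusted p = 2.9e-07 by edgeR), and Smad7 (0.66 ± 0.24, adjusted p = 0.023) and Tgfb3 (0.57 ± 0.22, adjusted p = 0.03) were higher, all under the fold limit. Tgfbr1 (0.09, 95% interval -0.11 to 0.30) and Inhbb (-1.74, -3.98 to 0.51) did not pass.

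Between 1014-Grpr and 1014-Ctrl at rest, none of 8 members was called, where 0.875% of genes were, and none passed at the adjusted p alone, where 2.26% did. The differences were -0.10 (95% interval -0.22 to 0.01) for Tgfb1 and -0.03 (-0.21 to 0.14) for Tgfbr1 on the log2 scale. The library labelled 1014-Ctrl mock replicate 2 is left out here. With both libraries kept the count was also 0, and the difference of Tgfb1 changed sign, to 0.29.

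Between 1181-Grpr and 1181-Ctrl, Tgfb1 and Fstl3 were called, 2 of 8 members where 8.07% of genes were called and 18.9% passed at the adjusted p alone. Tgfb1 stood at 24.4, 22.6 and 27.0 CPM in 1181-Grpr and at 7.55, 13.01 and 9.96 CPM in 1181-Ctrl (log2 fold change 1.26 ± 0.18, adjusted p = 5.8e-05 by edgeR). Fstl3 stood at 0.857, 0.706 and 0.28 CPM against 0.153, 0.0914 and 0.183 CPM (2.10 ± 0.39). The 1181-Ctrl mock libraries held 3 to 4 reads of Fstl3, which did not pass the filter on low counts in 1181-Ctrl alone. Its call is therefore a description. The groups did not overlap for either gene. With the replicate block, which is paired here too, 4 members passed at the adjusted p alone, with Tgfb3 higher (0.36, adjusted p = 0.039) and Tgfb2 lower (-0.44, adjusted p = 0.035) beside them, where 39.8% of genes passed. Tgfb1 and Fstl3 lie in 1181-Grpr between 1181-Ctrl and 1014-Grpr (82.2 CPM for Tgfb1, 1.22 CPM for Fstl3), and so does Xist, at 192 to 251 CPM against at most 0.639 CPM and 688 to 1250 CPM. The mock means of Tgfb2 and Skil lay between those lines too. The mean of Tgfb3 stood above both, at 17.2 CPM against 13.2 and 15.2 CPM. Its 1181-Grpr libraries, at 14.5 to 20.2 CPM, overlapped those of 1014-Grpr, at 14.6 to 15.5 CPM. The means of Tgfbr1 and Smad7 also stood above both, with overlap with 1181-Ctrl, and for Smad7 with 1014-Grpr as well. Inhba, Inhbb and Fst were too scarce to place. The part of whatever gives 1181-Grpr its Xist reads in these differences was not tested.

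The other genes of the pathway were taken from 6 lists of 101 genes in all. After GRP, 11 of the 71 tested rose in 1057, where 4.96% of all genes did, and 9 of 64 rose in 1014-Grpr, where 3.16% did. None fell by the full rule in either line, where 1.5% and 0.852% of all genes did. In 1064 1 of 70 rose against 1.52% of all genes, and with the replicate block 9 rose and 3 fell, where 6.52% of all genes were called in either direction. None of 68 was called in 1181-Grpr, and none of 62 and 66 in 1014-Ctrl and 1181-Ctrl, with or without the block.

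Among receptors and co-receptors, 2 of 14 tested rose in 1057. Acvr1c, which encodes the activin receptor-like kinase ALK7, rose from 1.53 ± 0.23 to 8.64 ± 0.22 CPM (SD, n = 3 each; log2 fold change 2.53 ± 0.12, adjusted p = 5.4e-12 by edgeR). In 1064 it stood at 2.75 ± 1.6 and 7.14 ± 0.72 CPM (1.37 ± 0.40, adjusted p = 0.072), and with the block it passed (1.40, adjusted p = 0.001). Bmpr1b, a BMP type I receptor, rose from 0.122 to 0.55 CPM in 1057 (2.15 ± 0.46, adjusted p = 0.00071). Among the other ligands Bmp2 rose from 1.71 ± 0.12 to 4.11 ± 0.37 CPM in 1057 (1.29 ± 0.14, adjusted p = 4.3e-07), and Amh, anti-Müllerian hormone, rose from 0.102 to 0.386 CPM (1.92 ± 0.54, adjusted p = 0.0057). The mock means of Bmpr1b and Amh lay within the range of the floor of 3 reads, 0.0640 to 0.154 CPM. Mock libraries alone could not carry either past the filter on low counts, so both changes are descriptions.

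Of 7 SMAD genes none was called in any line without the block. At the adjusted p alone 2 were higher and 3 lower in 1057, where 52.6% of all genes passed. Among them were the activin and TGF-beta mediator Smad3 (0.75, adjusted p = 5.0e-12 by edgeR) and the BMP mediator Smad5 (-0.98, adjusted p = 6.5e-15). Smad5 passed as lower in 1064 (-0.77, adjusted p = 0.0095) and 1014-Grpr (-0.69, adjusted p = 0.0015) too, where 6.38% and 29% of all genes passed. The SMAD genes named here fall outside the naming rule and were chosen after their values were seen. Smad6 and Smad9 fell in 1064 with the block alone (-1.36 and -2.00, adjusted p = 0.0058 and 0.003). Of 11 corepressor and turnover genes, Pmepa1, whose product limits SMAD signalling and which is itself a TGF-beta target, rose in 1057 from 14.0 ± 1.0 to 35.7 ± 1.3 CPM (1.37 ± 0.05, adjusted p = 1.2e-13). It stood at 13.7 ± 1.2 and 13.3 ± 0.77 CPM in 1014-Grpr.

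Of the genes that bind or activate the ligands outside the cell, Itgb8, an integrin subunit that releases latent TGF-beta, rose in 1057 from 1.09 ± 0.13 to 4.56 ± 0.16 CPM (2.09 ± 0.12, adjusted p = 9.2e-11). It rose in 1014-Grpr from 3.17 ± 0.77 to 9.60 ± 3.0 CPM (1.60 ± 0.27, adjusted p = 0.00089). Thbs1, thrombospondin 1, which can also activate latent TGF-beta, rose in 1014-Grpr from 9.89 ± 0.31 to 24.7 ± 3.8 CPM (1.33 ± 0.12, adjusted p = 7.5e-06) and was lower in 1057 (-0.45 ± 0.05, adjusted p = 1.2e-07, under the fold limit).

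Of the list of target genes, 5 of 17 tested were called in 1057 and 7 of 20 in 1014-Grpr, where 6.46% and 4.01% of all genes were, with a median log2 fold change of 0.40 and 0.67 against -0.01 and -0.02 over all genes. Ccn2, connective tissue growth factor, rose from 4.39 ± 0.72 to 11.8 ± 1.3 CPM in 1057 (1.45 ± 0.11, adjusted p = 3.0e-09) and from 13.9 ± 1.8 to 258 ± 155 CPM in 1014-Grpr (4.22 ± 0.36, adjusted p = 6.5e-06). Pdgfb, a growth factor chain, and Tagln, transgelin, rose in 1014-Grpr (3.66 ± 0.61 and 2.60 ± 0.47, adjusted p = 0.00085 and 0.0015). Of the lines with Grpr, Pdgfb passed the filter on low counts in 1014-Grpr alone. Levels of Pdgfb and Tagln are not given here. Whether their mock libraries alone could carry them past that filter was not tested, so their changes are descriptions in every line. Tgfbi, a secreted matrix protein, rose in 1014-Grpr from 0.356 ± 0.11 to 2.94 ± 1.3 CPM (3.03 ± 0.39, adjusted p = 0.00014) and was higher in 1057 (0.68 ± 0.10, adjusted p = 1.6e-05, under the fold limit).

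Many of these targets also answer to other pathways, and the lists do not tell which pathway acted. In 1064 Ccn2 and Tagln stood at log2 fold changes of 3.35 ± 0.95 and 2.18 ± 0.82 without passing (adjusted p = 0.064 and 0.15), and both passed with the block (3.11 and 1.94, adjusted p = 0.0001 and 0.029). The single list gene called in 1064 without the block was Tgfbi (4.02 ± 1.1, adjusted p = 0.049, and 3.64, adjusted p = 0.0018 with the block). Without the block this call was lost when any library of mock or GRP other than GRP replicate 1 was left out (log2 fold change 2.19 to 4.38, adjusted p = 0.056 to 0.16).

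**Figure D5:**
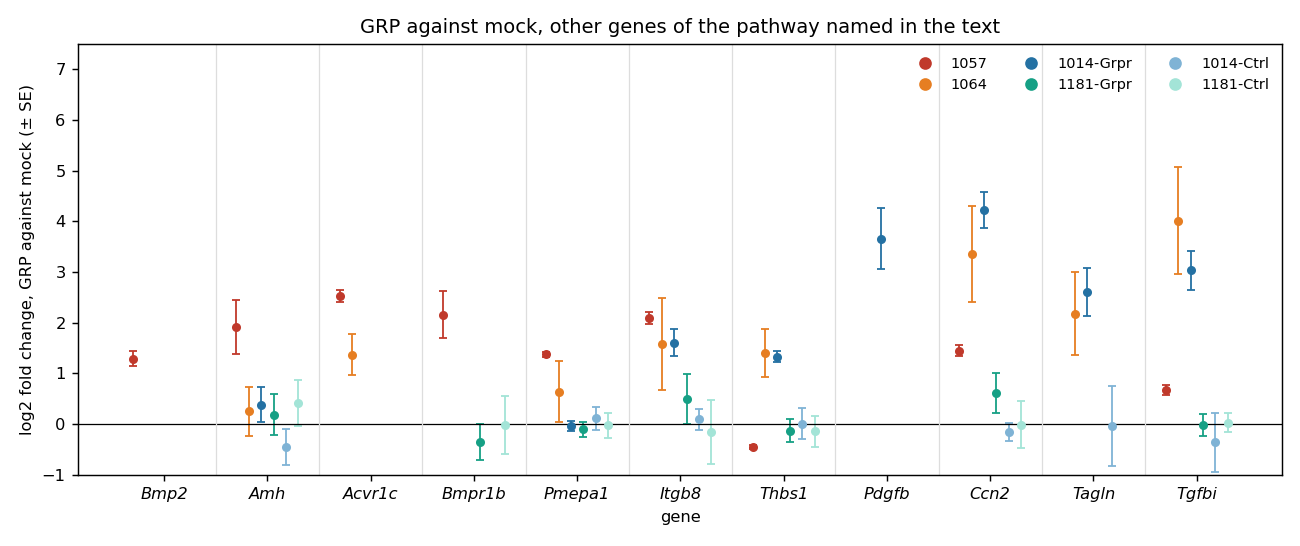
The log2 fold change of GRP against mock (± SE) for 11 other genes of the pathway in the lines where they were tested. Ccn2 lies above 4 in 1014-Grpr and near 0 in 1014-Ctrl, and Acvr1c, Bmp2 and Pmepa1 lie above 1 in 1057.

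The genes whose levels followed Inhba most closely were found by Pearson's correlation of log2(CPM + 1), centred within each line, over 70 libraries and 16901 genes. They were Il1rn (0.93), the interleukin 1 receptor antagonist, Il11 (0.93), a cytokine, Serpinb2 (0.92), a serpin, Trim24 (0.91), a transcriptional coregulator, and Kcnk3 (0.90), a potassium channel. Serpinb2 went from a mean of 0.0924 to 17.6 CPM in 1014-Grpr after GRP and Il11 from 0.257 to 9.79 CPM. The points share the 3 GRP libraries of 1014-Grpr, where Inhba is far above all others, so the likeness is given as a description. Kcnk3 was at 0.852 CPM there after GRP and at most at 0.0597 CPM in the mean of mock and GRP libraries of the other 3 lines with Grpr. Among the members, the correlation with Inhba was 0.46 for Tgfb1, 0.42 for Skil and 0.37 for Smad7, and -0.24 for both Fstl3 and Tgfbr1.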

How the data were processed

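RNA-seq was made from 72 libraries (TruSeq Stranded mRNA, polyA selected, paired reads). The authors aligned reads with STAR to mm10 with a GENCODE annotation and deposited raw counts per gene, and they deposited TPM values as well. The counting tool and strand setting are not given in the sources used here. FastQC 0.11.5 is named in the submitters' processing notes. From the counts, edgeR 4.0.16 quasi-likelihood tests (R 4.3.3, TMM, filterByExpr, Benjamini-Hochberg adjustment over all genes) were fitted per line, or over both lines for resting levels, with filter and spread shared by all treatments in a fit. Genes were called at an adjusted p below 0.05 with a change beyond 1 on the log2 scale in either direction. Errors of fold changes are SE, and errors of levels are SD. CPM uses TMM factors over all libraries, and TPM serves only to compare genes. Ensembl identifiers were matched to symbols for 50376 genes (99.56%). The 2 libraries that go against their labels were left out. Scripts were tested on simulated data.

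Members and lists were chosen with earlier results of these data known, and 1 list gene is not reported here. Besides the members, up to 4 called genes per pathway list with the largest mean absolute change, and the 5 genes most like the member with the largest change, were named. Replicate numbers come from the labels and were checked by the correlation of same-numbered libraries' deviations from their group means. Line 1057 had a lowest correlation of -0.154 and was not taken as paired. The lowest value was 0.583 for 1064, 0.386 for 1014-Grpr, 0.34 for 1014-Ctrl, 0.444 for 1181-Grpr and 0.74 for 1181-Ctrl, which were taken as paired. Alternatives were DESeq2 1.42.0, no filter, one fit of all lines, the replicate block, adjusted p alone, both libraries kept, leaving out each library and, added after seeing the data, RC and GRP+RC fitted alone. The 3 counts of the floor equal 0.0640 to 0.154 CPM. Figures were drawn with matplotlib 3.10.9.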

Additional observations from a re-analysis of the deposited data

Results flagged for a closer look

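The difference of the GRP effect, 1014-Grpr minus 1014-Ctrl (edgeR, n = 3 each apart from 2 mock libraries of 1014-Ctrl), passed its threshold for 4 of the 11 named genes of the pathway lists, of which 8 were tested. The log2 difference was 1.52 ± 0.37 (SE) for Itgb8, 1.33 ± 0.32 for Thbs1, 4.39 ± 0.43 for Ccn2 and 3.40 ± 0.75 for Tgfbi. These are descriptions, since the naming rule uses the change after GRP in 1014-Grpr, which is part of the difference. Between 1181-Grpr and 1181-Ctrl none of the 7 named genes tested passed. The same rule called 430 of 14404 genes (2.99%) in 1014 and 0 of 15286 between 1181-Grpr and 1181-Ctrl. For Inhba the difference was 9.63 on the log2 scale, a description of a gene chosen on this response, and its size depends on the prior count since 3 of the 4 groups hold 8 reads at most.

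The libraries left out hold signal that their groups do not. Replicate 2 of 1181-Grpr with GRP+RC held 92.8 CPM of Tgfb1, and the others of its group held 25.1 and 26.6 CPM. Mock replicate 2 of 1014-Ctrl held 25.04 CPM of it, and the others of its group held 88.3 and 87.3 CPM.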

How the results depend on the processing

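No change that passed the test as reported was reversed under an alternative. Of 340 member differences recomputed without the filter, with the block, with both libraries kept or in the 2 groups fitted alone, 21 changed sign, none of which passed either way. Skil in 1181-Grpr, GRP+RC against RC, went from -0.01 to 0.05 with the block. Counted by adjusted p alone, the members called for GRP against mock were 4 in 1057, 1 in 1064 and 4 in 1014-Grpr, where 52.6%, 6.38% and 29% of genes passed. In 1057 they were 3 for GRP+RC against RC, where 20.7% of genes passed, and 2 for RC against mock, where 24.3% did. Between 1057 and 1064 at rest they were 8, Inhba among them, where 61.3% of genes passed. For GRP+RC against RC in 1057, DESeq2, one fit of all lines and the 2 groups fitted alone (added after seeing the data) each called 0 members, with Inhba lost, and one fit of all lines called 1 member, Inhba, for GRP against mock in 1064. Leaving out 1 library gave 1 to 2 members in 1014-Grpr after GRP (Fstl3 gained without GRP replicate 2) and 3 to 5 between 1057 and 1064 at rest (3 without 1057 mock replicate 3 or 1064 mock replicate 1). Keeping both libraries under their labels changed no member count. Over single genes, counted at the adjusted p alone without the fold limit, passes were lost in 2 cases with DESeq2, 4 without the filter and 10 in one fit of all lines. When leaving out 1 library 31 were lost and 197 held.

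Genes called in 1064 after GRP ranged from 97 (without mock replicate 1) to 513 when 1 library was left out, against 320 as reported, 499 by DESeq2 and 767 in one fit of all lines. For GRP+RC against RC in 1014-Grpr they were 16 without the filter and 12 by DESeq2 against 0. One fit of all lines gave 17 genes for GRP+RC against RC and 24 for RC against mock in 1057, against 130 and 126. Between 1014-Grpr and 1014-Ctrl at rest they were 126, with 230 when both libraries were kept, 77 in one fit of all lines and 52 to 109 with 1 library left out. The cause was not tested.

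With the replicate block, genes called went from 320 to 900 in 1064, from 0 to 16 in 1181-Grpr after GRP and from 0 to 32 for GRP+RC against RC in 1014-Grpr. The block gave 1 member in 1057 and 1014-Grpr and 0 in 1064 and 1181-Grpr after GRP, 2 between the 1181 lines and 4 between 1057 and 1064, whose numbers do not pair, where Tgfb1 fell below the fold limit. It changed no other member call by the full rule. Inhba, Inhbb and Fst are limited by depth, with 26, 11 and 20 of 70 libraries over the floor of 3 reads.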
